A study of Schizosaccharomyces pombe with 3 samples.

Results

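The genes described here encode the pyruvate dehydrogenase complex, the enzymes of the tricarboxylic acid (TCA) cycle and the nuclear-encoded proteins of the respiratory chain and ATP synthase of the fission yeast Schizosaccharomyces pombe. They were chosen by gene symbol in the platform annotation (cit, idh, idp, sdh, kgd, fum, mdh, cox, qcr, atp, ndi, nde, cyt, cyc, rip, pda, pdb, pdx, lat or dld with a number) and then by product. The symbols matched 53 genes, of which 9 encode assembly or expression factors and were set aside. The remaining 44 of 4981 measured features were the members. They comprised 5 genes of pyruvate dehydrogenase, 10 of the TCA cycle, 10 of complex III and cytochrome c, 7 of complex IV and 12 of ATP synthase. The genes of aconitase, kgd1, mdh1, ndi1, nde1, cox7, atp19 and the subunits encoded in mitochondrial DNA were not analysed here.

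Pyruvate dehydrogenase converts pyruvate to acetyl-CoA in the mitochondrial matrix. Citrate synthase joins acetyl-CoA to oxaloacetate, and isocitrate dehydrogenase then forms 2-oxoglutarate, which is both the next intermediate of the cycle and the carbon skeleton of glutamate. The respiratory chain passes electrons from NADH and succinate through ubiquinone, complex III, cytochrome c and complex IV to oxygen, and ATP synthase uses the proton gradient that results. S. pombe has no proton-pumping complex I. Cells growing on glucose ferment much of it, but the cycle still supplies precursors for amino acids. The branched-chain amino acid aminotransferase encoded by eca39 exchanges amino groups between branched-chain amino acids and glutamate, with 2-oxoglutarate as the partner of glutamate.

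RNA came from 3 cultures, each measured on 1 Affymetrix array. The eca39 deletion culture was started from a plate of rich medium (YE) with SpHT257-1, an h- strain in which kanMX4 replaces eca39 (eca39∆::kanMX4). The adapted eca39 deletion culture was that strain after adaptive growth beside wild-type cells on EMM2-N, a minimal medium plate, to which 15 mM glutamate and the branched-chain amino acids isoleucine, leucine and valine (2 mM) had been added. The wild-type culture was the prototrophic strain SpHT219 (h-), also from a YE plate. All were grown in liquid YE with these amino acids at 2 mM, starting at an optical density near 0.1 and harvested near 1, so adaptation and the plate of origin cannot be told apart. Both deletion cultures carry the kanMX4 cassette, which wild type lacks, and the mutant is represented by 1 strain.

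Values are log2 expression values, and a difference is the value of a mutant culture minus that of its comparison culture. With 1 array per culture there was no replicate spread, so no difference had a test, and the precision of each value is limited by the number of arrays. A gene was said to rise or fall where the difference was at least 1 (2-fold) and the brighter value was at or above 9.82 (the 30th percentile of all values). A 1.5-fold difference (0.585) was used as a second, lower size. All 44 members reached the brightness limit on all 3 arrays, with values from 11.36 to 14.37. The arrays reached at most 15.12 to 15.17, so differences of the brightest members may be understated. The eca39 probe set read 6.12 in the deletion culture and 6.37 in adapted cells, against 14.60 in wild type, as the labels state. In RNA from whole cultures, a lower level in every cell and fewer cells that express a gene cannot be told apart.

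The largest differences among the members lay at the entry of carbon into the cycle. In the deletion culture, 2 of 44 members rose 2-fold against wild type, the pyruvate dehydrogenase gene pdx1 and the citrate synthase gene cit1, and none fell. Over all 3569 features at the brightness limit, 2.3% rose and 0.0841% fell. At 1.5-fold, 3 members were higher in the deletion culture (pdx1, cit1 and idp1) and none lower, against 5.52% and 0.616% of all features. The members' shares were 4.55% at 2-fold and 6.82% at 1.5-fold, and with 1 gene fewer both would lie below those of all features. The members that passed encode a protein of pyruvate dehydrogenase, citrate synthase and an isocitrate dehydrogenase. The median difference of the 44 members was 0 to 2 decimals, as was that of all features. Among the 1112 features with a mean of at least 12, it was -0.028.

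In the adapted culture no member rose or fell 2-fold against wild type, where 1.48% of 3588 features rose and 0.223% fell. At 1.5-fold cit1 alone was higher, against 3.62% of all features, and none was lower, against 0.418%. The median difference was 0.076 for the members, 0.027 for all features and 0 for the 1112 features with a mean of at least 12. Under repeated quantile normalization it was 0.018 for the members and -0.016 for those 1112 features. Between the adapted and the unadapted deletion culture no member rose or fell 2-fold, where 0.194% of 3609 features rose and 0.471% fell. At 1.5-fold only pdx1 was lower in the adapted culture, against 1.52% of all features, and none was higher, against 0.665%. The adapted and the unadapted comparisons with wild type use the same wild-type array, so they are not independent of each other.

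**Figure D1:**
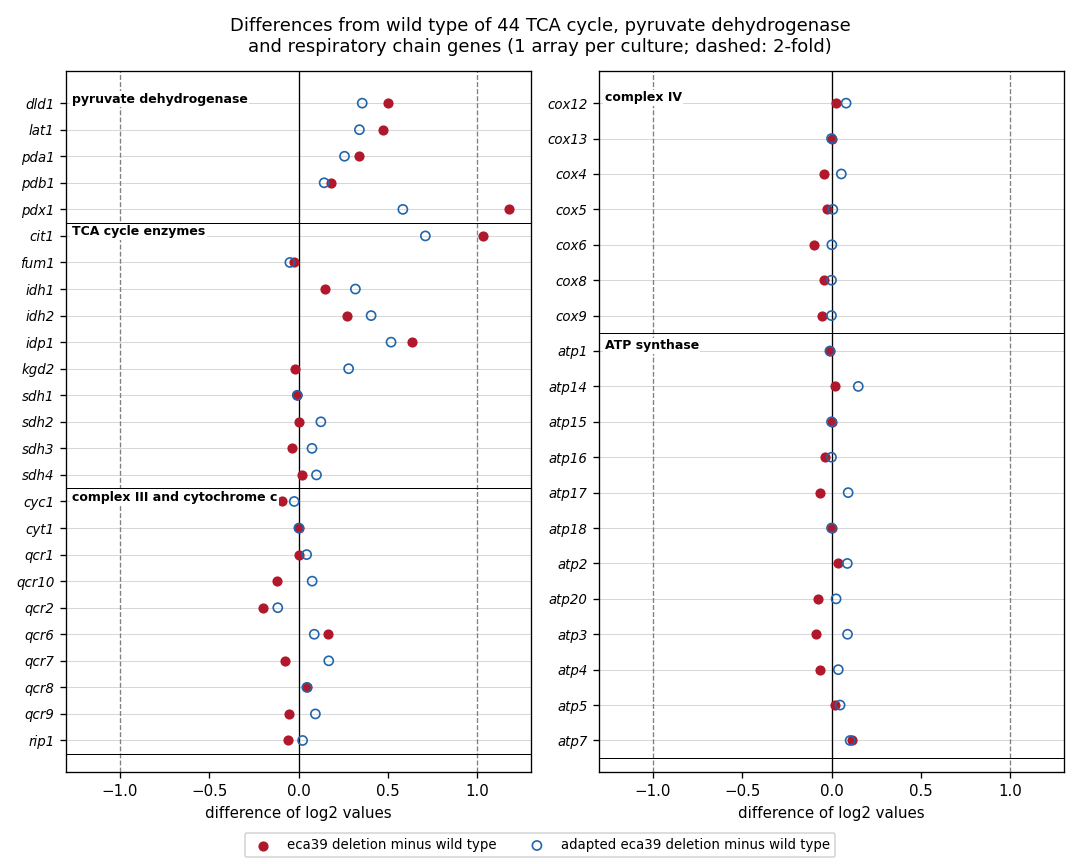
Difference of log2 values from wild type (horizontal axis) for each of the 44 genes, by role, in the eca39 deletion culture (filled) and the adapted culture (open), with 1 array per culture and dashed lines at 2-fold. The genes pdx1 and cit1 pass the right dashed line in the deletion culture, while the 29 genes of complex III, cytochrome c, complex IV and ATP synthase lie within 0.25 of 0.

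The measured genes of pyruvate dehydrogenase all stood above wild type in both mutant cultures. All 5 of its measured genes read highest in the deletion culture, next in the adapted culture and lowest in wild type, an order shown by 9 of 44 members and by 17.2% of 3635 features at the brightness limit on any array. The group's median difference from wild type was 0.47 in the deletion culture and 0.34 in adapted cells. These signs held for all 5 genes when quantile normalization was repeated and when the trend of the difference with intensity was removed.

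The gene pdx1 (SPCC1259.09C) encodes the E3-binding protein, which anchors the third enzyme of the complex to its core. It read 12.53 in the deletion culture and 11.94 in adapted cells, against 11.36 in wild type. It was thus 2.26-fold higher in the deletion culture than in wild type, the 57th highest positive difference among 3569 features. In the adapted culture it lay midway, with a difference of 0.584 from wild type, just under the 1.5-fold size, and of -0.594 from the unadapted deletion culture, just past it.

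The other 4 genes of the complex differed less and did not reach 1.5-fold. The E3 gene dld1 (SPAC1002.09C), whose dihydrolipoamide dehydrogenase also serves 2-oxoglutarate dehydrogenase, read 13.92 in the deletion culture and 13.78 in adapted cells, against 13.42 in wild type. The E2 gene lat1 (SPCC794.07), for the acetyltransferase that forms the core, read 13.72 and 13.59 in the deletion and adapted cultures, against 13.25 in wild type. Both were about as far above wild type as each other, with differences of 0.50 and 0.47 in the deletion culture. The genes of the decarboxylase E1 lay nearer to wild type. Its alpha subunit gene pda1 read 14.25 in the deletion culture, 14.17 in the adapted culture and 13.91 in wild type. Its beta subunit gene pdb1 read 14.11 in the deletion culture, 14.07 in the adapted culture and 13.93 in wild type. The differences in the deletion culture were 0.34 for pda1 and 0.18 for pdb1, both among the brightest members. The gene pkp1, for the kinase that inactivates the complex, was no member and read 11.22 in the deletion culture and 11.37 in adapted cells, against 11.25 in wild type.

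**Figure D2:**
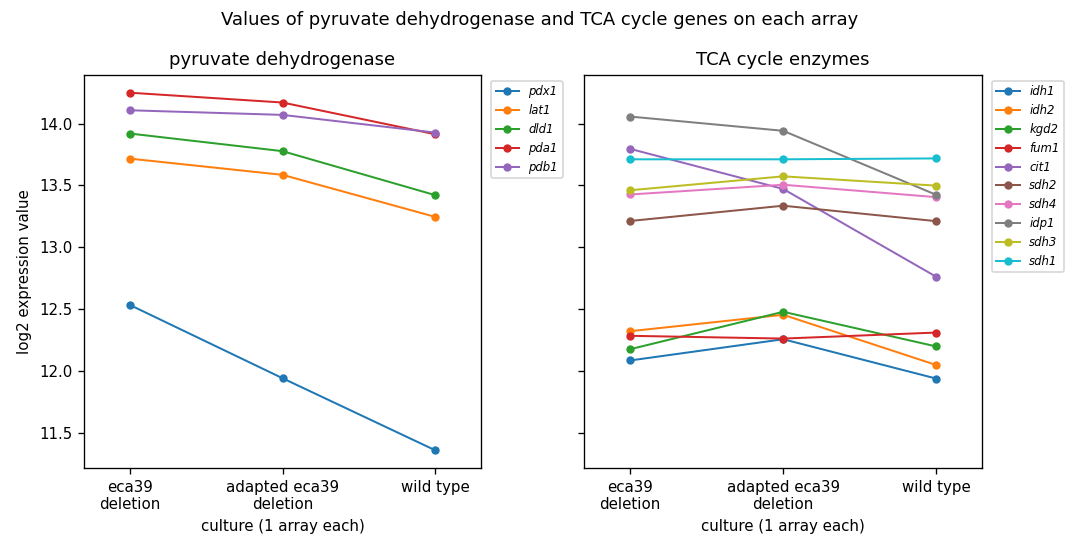
Log2 expression values (vertical axis) of the 5 pyruvate dehydrogenase genes (left) and the 10 TCA cycle genes (right) on the arrays of the eca39 deletion, adapted and wild-type cultures, with 1 line per gene. All 5 lines on the left slope down to wild type, most steeply for pdx1, and on the right cit1 and idp1 do so. The lines of idh1, idh2 and kgd2 peak in the adapted culture, as do those of sdh2, sdh3 and sdh4 by less.

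In the TCA cycle, the measured genes for the steps from acetyl-CoA to 2-oxoglutarate read above wild type in both mutant cultures. In the deletion culture their differences ran from 0.15 (idh1) to 1.03 (cit1), and those of the later steps from -0.037 (sdh3) to 0.021 (sdh4). In the adapted culture the later-step gene kgd2 was also above wild type, by 0.28, against 0.32 for idh1. This division into earlier and later steps was not one of the role groups and was drawn with the values known. Over all 4981 features, 45.9% stood above wild type in the unadapted mutant and 56.1% in adapted cells. With the intensity trend removed, all 10 TCA cycle genes lay above wild type in the deletion culture, against 4 with quantile normalization repeated. The sign of the later steps thus depended on the normalization. The citrate synthase gene cit1 (SPAC6C3.04), for the first enzyme of the cycle, read 13.80 in the deletion culture and 13.47 in adapted cells, against 12.76 in wild type. It was 2.05-fold higher in the deletion culture and 1.64-fold higher in the adapted culture than in wild type. Repeated quantile normalization brought its difference in the deletion culture to 0.98, below the 2-fold size.

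Isocitrate dehydrogenase exists as an NADP-dependent enzyme, encoded by idp1, and an NAD-dependent enzyme of the cycle, with subunits encoded by idh1 and idh2. The gene idp1 (SPAC6G10.08) read 14.06 in the deletion culture and 13.94 in adapted cells, against 13.42 in wild type, which made it 1.55-fold and 1.43-fold higher than in wild type. Like cit1 and the pyruvate dehydrogenase genes, it read highest in the unadapted deletion culture.

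Both subunit genes of the NAD-dependent enzyme read highest in the adapted culture, next in the deletion culture and lowest in wild type. That order was shown by 8 of 44 members and by 4 of the 10 TCA cycle genes, so it was not particular to this enzyme. A further 13 members read highest in the adapted culture with wild type next. The share over all features was not computed for either order, so these counts cannot be set against a background. The gene idh1 (SPAC11G7.03) read 12.08 in the deletion culture and 12.26 in adapted cells, against 11.94 in wild type. The gene idh2 (SPBC902.05C) read 12.32 and 12.45 in the deletion and adapted cultures, against 12.05 in wild type. The names glu3 and glu2 are listed as synonyms of idh1 and idh2. Their differences from wild type were 0.15 and 0.27 in the deletion culture and 0.32 and 0.41 in adapted cells, all under 1.5-fold.

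The later steps differed little in the deletion culture. The gene kgd2 (SPBC776.15C), for the E2 enzyme of 2-oxoglutarate dehydrogenase, read 12.18 in the deletion culture and 12.48 in adapted cells, against 12.20 in wild type. Its difference of 0.30 between the adapted and the unadapted culture was the largest positive one among the 44 members. The fumarase gene fum1 read 12.28 in the deletion culture, 12.26 in the adapted culture and 12.31 in wild type.

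Succinate dehydrogenase, which belongs to both the cycle and the chain, had 4 measured subunit genes with differences from -0.037 to 0.021 in the deletion culture and from -0.0072 to 0.12 in adapted cells. The flavoprotein gene sdh1 read 13.71 in both mutant cultures, against 13.72 in wild type. The iron-sulfur subunit gene sdh2 read 13.21 in the deletion culture and 13.34 in adapted cells, against 13.21 in wild type. The membrane anchor gene sdh3 read 13.46 and 13.57 in the deletion and adapted cultures, against 13.50 in wild type. The probe set named sdh4 on the platform belongs to a gene now called tim18 with sdh4 as a synonym, and it read 13.43 in the deletion culture and 13.51 in adapted cells, against 13.41 in wild type. Over the 10 TCA cycle genes the median difference was 0.012 in the deletion culture, which turned to -0.025 under repeated quantile normalization, and 0.20 in the adapted culture.

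The respiratory chain beyond succinate dehydrogenase, and ATP synthase, stood close to wild type in both mutant cultures. All 29 genes of complex III, cytochrome c, complex IV and ATP synthase lay within 0.25 of wild type in either mutant culture, and within 0.25 of each other between the mutant cultures. Among the 1112 features with a mean of at least 12, which include 43 of the 44 members, 77.4%, 81.0% and 91.3% lay within 0.25 in the same 3 comparisons. The median difference of the 29 genes was -0.038 in the deletion culture, which became 0.027 after removal of the intensity trend, and 0.038 in the adapted culture, which became -0.018 under repeated quantile normalization. No direction can be given for shifts of that size.

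Complex III passes electrons from ubiquinol to cytochrome c. Its core subunit gene qcr2 read 13.18 in the deletion culture and 13.27 in adapted cells, against 13.38 in wild type, and its difference of -0.20 in the deletion culture was the lowest of all 44 members. The other core subunit gene, qcr1, read 12.18 in the deletion culture and 12.23 in adapted cells, against 12.18 in wild type. The 2 core subunit genes thus did not share an order over the arrays.

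Of the catalytic subunits, the Rieske iron-sulfur protein gene rip1 read 13.59 in the deletion culture and 13.67 in adapted cells, against 13.65 in wild type. The cytochrome c1 gene cyt1 read 12.96 on all 3 arrays. Cytochrome c itself, encoded by cyc1, read 14.27 in the deletion culture and 14.34 in adapted cells, against 14.37 in wild type, the brightest reading among the members. Of the small subunits, qcr6 was the one with the largest positive difference in the deletion culture, at 13.04 there and 12.97 in the adapted culture, against 12.88 in wild type. The gene qcr7 read 13.22 in the deletion culture and 13.46 in adapted cells, against 13.29 in wild type, and qcr10 read 13.14 in the deletion culture, 13.34 in the adapted culture and 13.26 in wild type. Both read lowest in the deletion culture and highest in the adapted culture. The difference from wild type was only -0.075 for qcr7 in the deletion culture and 0.076 for qcr10 in adapted cells. For qcr7 that difference kept its sign, at -0.12 with quantile normalization repeated and -0.017 with the intensity trend removed. No such values were read for qcr10. Other normalizations shifted named members by up to 0.076, so the place of wild type in this order is not firm. The remaining qcr8 and qcr9 had differences from wild type of 0.046 and -0.052 in the deletion culture and of 0.046 and 0.094 in adapted cells.

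Complex IV, cytochrome c oxidase, reduces oxygen to water, and its nuclear-encoded subunits surround a core made in the mitochondrion. Its 7 measured genes had differences from -0.10 to 0.026 in the deletion culture and from 0 to 0.082 in adapted cells. The gene cox6 had the lowest difference in the deletion culture, with 12.64 in the deletion culture and 12.75 in adapted cells, against 12.74 in wild type. The gene cox12 had the highest in both mutant cultures, with 12.82 in the deletion culture and 12.88 in adapted cells, against 12.80 in wild type. The gene cox4 read 13.62 in the deletion culture and 13.71 in adapted cells, against 13.66 in wild type. The genes cox5, cox8, cox9 and cox13 differed from wild type by at most 0.054 in either mutant culture. In the adapted culture the differences of cox8, cox9 and cox13 from wild type were 0, which does not show an equal level, as described for ATP synthase below.

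ATP synthase couples proton flow through its membrane part to ATP synthesis by its catalytic F1 part. Its 12 measured genes had differences from -0.089 to 0.12 in the deletion culture and from -0.0091 to 0.15 in adapted cells. Of the F1 genes, atp2, for the catalytic beta subunit, read 14.15 in the deletion culture and 14.20 in adapted cells, against 14.11 in wild type. The gene of the alpha subunit, atp1, read 13.60 in both mutant cultures, against 13.61 in wild type. The gene of the gamma subunit, atp3, read 13.25 in the deletion culture and 13.42 in adapted cells, against 13.34 in wild type. In the deletion culture atp3 therefore had the lowest difference of the complex, and it lay on the other side of wild type in the adapted culture.

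The peripheral stalk holds F1 in place, and its genes atp7 and atp14 had the highest differences of the complex, atp7 in the deletion culture and atp14 in the adapted culture. The gene atp7 read 12.99 in the deletion culture and 12.98 in adapted cells, against 12.88 in wild type. The gene atp14 read 13.16 and 13.29 in the deletion and adapted cultures, against 13.14 in wild type. The stalk genes atp4 and atp5 differed by -0.063 and 0.020 in the deletion culture. The membrane subunit genes atp17 and atp20 differed by -0.063 and -0.077 in the deletion culture and by 0.093 and 0.026 in adapted cells, and atp16, of F1, by -0.038 in the deletion culture. The genes atp15 and atp18 had the same value on all 3 arrays to within 1e-06, at 13.08 and 12.48, as did 5.84% of all features. Median polish, the step of RMA that combines the probes of a probe set, can give identical values, so a difference of exactly 0 does not show an equal level.

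**Figure D3:**
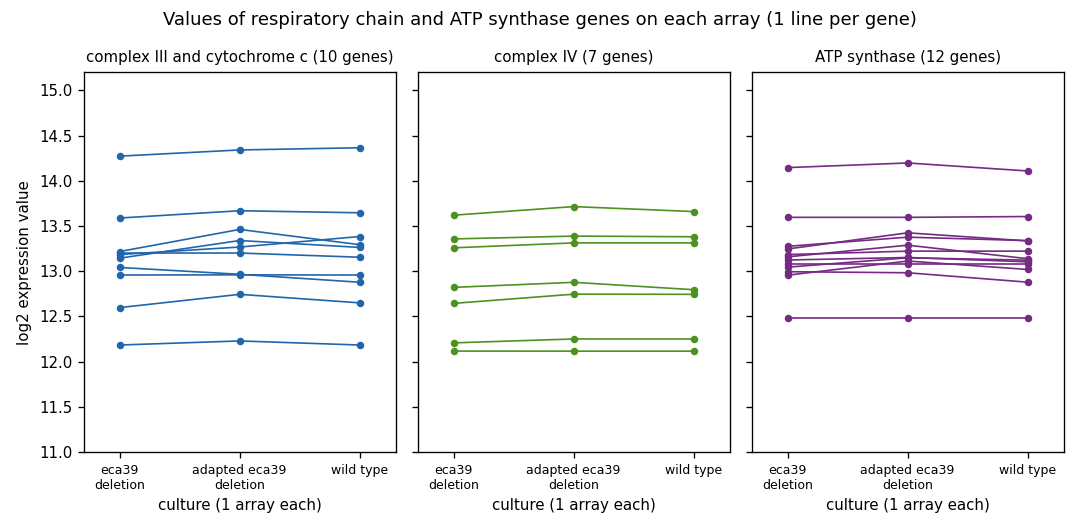
Log2 expression values (vertical axis) of the 10 genes of complex III and cytochrome c, the 7 of complex IV and the 12 of ATP synthase on the arrays of the eca39 deletion, adapted and wild-type cultures, with 1 line per gene. The lines run nearly level, and no gene differs by more than 0.25 between any 2 arrays.

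Genes around the cycle and the chain that the symbol pattern does not cover were read from a list of 37. The list took lsc1 by symbol only, and the role of this gene was not checked. Of the 37 genes, 27 were measured, lsc1 among them. None rose or fell 2-fold in any of the 3 comparisons, and 2 of the 23 at the brightness limit were at least 1.5-fold higher in the deletion culture than in wild type. The share of all features was 2.3% at 2-fold and 5.52% at 1.5-fold, so this count is near the background. The pyruvate carboxylase gene pyr1 (SPBC17G9.11C), whose enzyme makes oxaloacetate from pyruvate, read 13.95 in the deletion culture and 13.78 in adapted cells, against 13.36 in wild type. The gene isu1 (SPAC227.13C), for the scaffold on which iron-sulfur clusters are built, read 13.04 and 12.84 in the deletion and adapted cultures, against 12.40 in wild type. Both read highest in the deletion culture and lowest in wild type, an order shown by 17.2% of 3635 features at the brightness limit on any array. They were named for their rise in the deletion culture, so a high reading there follows from the choice.

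Of the other iron-sulfur cluster genes, isa1 read 12.11 in the deletion culture and 12.02 in adapted cells, against 11.61 in wild type. The gene isa2 read 11.06 and 11.07 in the deletion and adapted cultures, against 10.60 in wild type. The cysteine desulfurase gene nfs1 read 12.68 in the deletion culture, 12.64 in the adapted culture and 12.67 in wild type, a difference from wild type of 0.014 in the deletion culture. The 11 genes of ubiquinone synthesis or function had a median difference of 0.076 in the deletion culture, with a range from -0.089 to 0.39, and of 0.10 in adapted cells, with a range from -0.055 to 0.50. Of these genes coq7 had the highest difference in both, and it read 11.97 in the deletion culture and 12.08 in adapted cells, against 11.58 in wild type. The decaprenyl diphosphate synthase subunit gene dps1 had differences of 0.14 in the deletion culture and 0.49 in adapted cells, but was below the brightness limit in the deletion culture and in wild type. The gene of its partner subunit, dlp1, had differences of -0.089 in the deletion culture and 0.0078 in adapted cells. The median over the 27 genes was 0.042 in the deletion culture and 0.11 in adapted cells. The malic enzyme gene mae2 had the lowest difference of the list in the adapted culture, at 14.19 in the deletion culture and 14.08 in adapted cells, against 14.30 in wild type.

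The genes of known or likely regulators were read from a list of 13, of which 7 were measured and none reached 1.5-fold at the brightness limit. They include subunits of the CCAAT-binding Php complex, related to the Hap complex that activates respiratory genes in budding yeast. The gene php3 read 11.58 in the deletion culture and 11.60 in adapted cells, against 11.24 in wild type. The gene php2 had differences of 0.40 in the deletion culture and 0.56 in adapted cells, but lay below the brightness limit on all 3 arrays. The gene php5 had differences of -0.21 in the deletion culture and -0.12 in adapted cells. The gene php4, for the subunit that represses iron-using genes when iron is scarce, had differences of 0.23 in the deletion culture and 0.091 in adapted cells. The subunits of the complex thus differed in sign.

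The 9 assembly and expression factors set aside by product had a median difference that rounded to 0 in both mutant cultures, with a range from -0.28 to 0.27 in the deletion culture and from -0.41 to 0.45 in adapted cells. Only 7 of the 9 reached the brightness limit, and none rose or fell 2-fold. The gene atp11, for a chaperone of F1 assembly, read 11.22 in the deletion culture and 10.54 in adapted cells, against 10.95 in wild type, and was the only one past 1.5-fold, lower in the adapted than in the unadapted culture, where 1.52% of all features were lower by that size and 0.471% by 2-fold. The gene cox18, for a factor that inserts a complex IV subunit into the membrane, read 10.45 in the adapted culture, a difference of 0.45 from both the deletion and the wild-type culture.

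**Figure D4:**
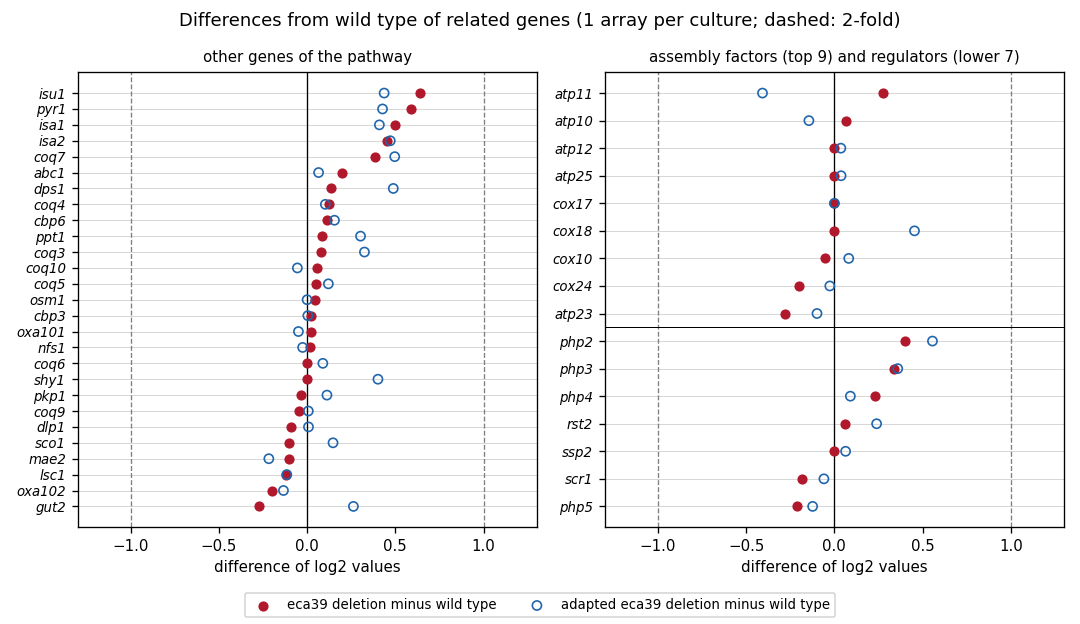
Difference of log2 values from wild type (horizontal axis) in the eca39 deletion culture (filled) and the adapted culture (open) for 27 other genes of the pathway (left) and for 9 assembly factors and 7 regulators (right), with 1 array per culture. No gene reaches the dashed lines at 2-fold, and isu1 and pyr1 lie farthest to the right in the deletion culture.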

How the data were processed

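Log2 expression values of 4999 probe sets on 3 arrays (1 per culture) were deposited by the authors. Per the submitters' processing notes, the authors used RMA (affy package), and the RNA was labelled with the Affymetrix 3' IVT Express kit, per the labels' protocols. Versions, genome build and probe set filters were not given in the sources used here. Log base 2 was taken from the range of 2.99 to 15.17. RMA sets arrays to 1 distribution, so a shift of most transcripts would not be seen.

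Gene names were those of the platform annotation, updated by gene number to ASM294v3 where possible. Of the probe sets 2917 had 1 name, 20 several and 2062 none. Probe sets of 1 gene were averaged, giving 4981 features. Each member had 1 probe set.

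Products were assigned by hand. Members and gene lists were chosen with earlier results of these data known. Genes named were those past 1.5-fold, the 3 largest differences per role, and, for description, the remaining members. Differences were described by a size rule without tests, and the calculation was tested on simulated data (Python 3.11.15, pandas 2.3.3, statsmodels 0.14.6). The alternatives changed the fold, the brightness limit, the normalization, the probe set choice and the membership. Sequences and promoter motifs were not analysed here.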

Additional observations from a re-analysis of the deposited data

How the results depend on the processing

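Under the 2 other normalizations (quantile normalization repeated, intensity trend removed), the medians of the members and of the role groups shifted by at most 0.067, which exceeds many of the medians themselves. Of these 36 medians 9 changed sign, each between 0 and 0.055 in size before. For 15 named members, 6 of 90 differences changed sign, each of at most 0.063 in size before, and 1 changed its call (cit1 in the deletion culture, quantile normalization repeated). The brightest-probe-set alternative could not change a member, since each has 1 probe set. The count of 2 members that rose in the deletion culture became 0 at a 3-fold threshold and 1 (pdx1) when quantile normalization was repeated. The counts of 0 members in the adapted culture against wild type and against the deletion culture each became 1 at a 1.5-fold threshold.

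Over all features, the counts that rose or fell were 85 for the deletion against wild type, 61 for the adapted culture against wild type and 24 between the adapted and the deletion culture. In that order they became 219, 145 and 79 at 1.5-fold, 38, 25 and 5 at 3-fold, and 152, 133 and 46 without the brightness limit. At another fold, the calls of cit1, pdx1 and idp1 changed by construction. No paired analysis was possible because each group had 1 array. The motif comparison in promoters was not run.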

Other observations

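By the distance between both differences from wild type, the named genes most like cit1 among 2162 at the brightness limit were arg4, isp6, arg5, adh4 and sro1. The arginine genes arg4 and arg5 encode the subunits of a carbamoyl phosphate synthase. The gene arg4 read 14.07 in the deletion culture and 13.73 in adapted cells, against 13.03 in wild type, and arg5 read 13.87 in the deletion culture, 13.62 in the adapted culture and 12.84 in wild type. The likeness rests on 3 arrays and on differences that share the wild-type array.

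The nearest measured named genes on either side of pdx1 and cit1, by gene order in ASM294v3, did not reach 1.5-fold in either mutant culture. Beside pdx1, pgp1 read 11.21 in the deletion culture and 11.01 in adapted cells, against 10.94 in wild type, with no protein-coding gene between them. On the other side, with 1 protein-coding gene between, rxt3 read 9.94 in the deletion culture, 10.14 in the adapted culture and 9.84 in wild type. For cit1 the nearest such genes, msa1 and mug68, were not adjacent, with 2 protein-coding genes between on each side. The gene msa1 read 10.15 in the deletion culture and 10.22 in adapted cells, against 10.38 in wild type, and mug68 was dim on all arrays.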
